A study of Mus musculus with 12 samples.

Results

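The keratin gene family was described during the early reprogramming of mouse embryonic fibroblasts by Oct4, Klf4, Sox2 and c-Myc (OKSM), with or without a hairpin against Chaf1a. The Chaf1a protein is a subunit of CAF-1, a chaperone that loads histones onto newly replicated DNA. A gene was a member when a probe set named it alone and its symbol was Krt followed by a number, which leaves out the keratin-associated proteins. The rule found 53 keratin genes among the 22180 genes with a probe set of their own. Krt18 had 2 such probe sets and the other members 1 each, and the Krt18 probe set with the higher mean over the arrays was used. Krt5 shared its probe set with Krt6a, so it was not a member.

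The 12 arrays formed 4 groups of 3 arrays each, which were day 3 control, day 3 knockdown, day 6 control and day 6 knockdown. All groups were fibroblasts from E13.5 embryos, with a strain label that names C57Bl/6 and 129X1/SvJ. Their genotype was Col1a1::tetOP-OKSM ; R26-M2rtTA, in which doxycycline switches on the factors through a transactivator made from the Rosa26 locus. The control cells carried a retroviral hairpin against Renilla luciferase, and every group received doxycycline, in serum and LIF, for 3 or 6 days. The origin of the replicates, from separate cultures or one, is not given in the labels, and p-values therefore measure only the spread between these samples, which may be technical. Uninduced fibroblasts were not analysed here. Because whole cultures were measured, fewer cells of a type and less RNA per cell cannot be told apart.

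Keratins are the intermediate filament proteins of epithelial cells, and a filament is built from pairs of an acidic type I and a basic type II keratin. Simple epithelia and early embryonic epithelia use mainly Krt8 with Krt18 and Krt19, and ducts and mesothelium also use Krt7. Stratified epithelia such as skin use other pairs, and hair follicles and nails use sets of their own. Fibroblasts build their filaments mainly from vimentin, and reprogramming fibroblasts pass through a change from mesenchymal to epithelial form. In the classes used here, 6 members were simple epithelial, 20 stratified epithelial, 8 of the inner root sheath of the hair follicle and 16 of hair and nail, with 3 in no class (Krt88, Krt90 and Krt222). By type, 27 were type I and 23 type II. In the RefSeq table for GRCm38.p6, 27 members lay on chromosome 11 and 26 on chromosome 15, where Krt18 is a type I gene among type II genes.

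The targeted transcript differed little between arrays labelled knockdown and control. Chaf1a stood at log2 intensities of 7.44, 7.72 and 7.42 in day 3 control and 7.35, 7.18 and 7.19 in day 3 knockdown, and these groups did not overlap. At day 6 it stood at 7.06, 7.30 and 7.31 in control and 7.04, 7.16 and 7.11 in knockdown, and these overlapped. The day 3 difference was 1.22-fold (limma adjusted p = 0.726) and the day 6 difference 1.09-fold (limma adjusted p = 0.999), with the knockdown array lower in each of the 3 same-number pairs of both days. Array medians lay between 39.5 and 43.3 on the linear intensity scale, and Pearson's r over genes between arrays of a group was 0.995 to 0.997. Of 11 fibroblast markers, 9 lay above the array median on all 12 arrays, Pdgfra on 3 and Lum on 0. Day 3 knockdown replicate 2 stood apart by its interferon-stimulated genes, whose mean log2 intensity was 7.67 there and 6.16 to 6.44 in the other 11 arrays. Counts past the test that rest on it are also given without it.

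A gene passed the low-value filter when it reached its array's 30th percentile, a log2 intensity of 4.30 to 4.38, in at least 3 arrays. Of the 53 keratins 48 passed, and Krt6a, Krt16, Krt23, Krt26 and Krt87 did not, with means over the 12 arrays between 3.90 and 4.26. As a second mark, the 1088 olfactory receptor genes, which fibroblasts are not known to use, had 95th percentiles of their group means between 5.37 and 5.46. In at least 1 group, 28 keratins lay above that mark and 6 above the 99th percentile, namely Krt8, Krt18, Krt19, Krt10, Krt13 and Krt81. Krt18 lay above the 99th percentile only in day 6 knockdown (6.67 against 6.64), and Krt10 and Krt13 in 2 groups each. The 95th percentile mark is close to the array medians over all probe sets, 5.30 to 5.44, and the share of all genes above it is not given here. Above the 95th percentile were 5 of 6 simple, 9 of 20 stratified, 1 of 8 inner root sheath and 11 of 16 hair and nail keratins, with Krt88 and Krt90 of the rest. Probe sets differ in their own background, so an intensity past the mark does not by itself show expression, and levels were not ranked between genes.

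**Figure D1:**
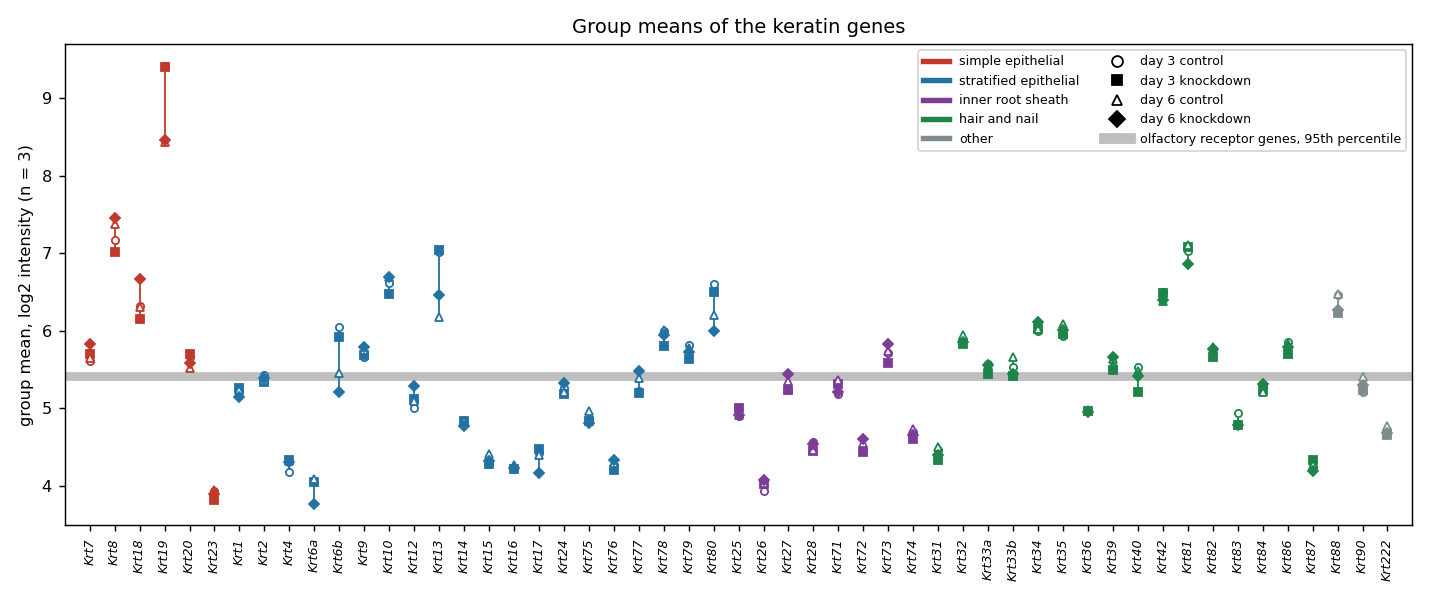
Group means of log2 intensity (vertical axis, n = 3 arrays) for each of the 53 keratin genes (horizontal axis), coloured by class, with open symbols for control, filled symbols for knockdown and a grey line at the 95th percentile of olfactory receptor genes. Krt19, Krt8, Krt13, Krt81 and Krt10 are among the genes above the line in each group, and many genes lie near or below it. Krt19 and Krt13 show wide gaps between days.

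Among the simple keratins, Krt19 fell between day 3 and day 6 for both hairpins. The pair Krt8 and Krt18 rose in knockdown cells, for Krt18 by the probe set used. Neither rise was shown to differ from the change in control cells. Krt8 and Krt18 are the usual partners in simple epithelial filaments, and in the RefSeq table they are adjacent protein-coding genes on chromosome 15. Their promoter windows are shown because both rose in the same comparison, and the window of Krt7, the other simple type II keratin, because Krt7 did not pass in a comparison. The Krt13 window is shown because that stratified keratin fell in both time comparisons. Each window runs from 250 bases before to 50 bases after the gene's start in RefSeq for GRCm38.p6, printed 5′ to 3′ on the gene's strand. Capitals mark matches, on either strand, to TATAAA (the box bound by TBP), CACCC (the core bound by KLF factors), CACCTG (the E-box bound by Snail and Zeb repressors) and TGANTCA (the AP-1 site).
Krt8: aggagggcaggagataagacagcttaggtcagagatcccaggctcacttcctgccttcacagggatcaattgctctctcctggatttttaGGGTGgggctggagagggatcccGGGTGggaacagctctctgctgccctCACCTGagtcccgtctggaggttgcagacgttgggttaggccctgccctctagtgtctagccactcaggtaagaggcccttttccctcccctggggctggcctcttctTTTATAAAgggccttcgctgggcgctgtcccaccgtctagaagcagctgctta
Krt18: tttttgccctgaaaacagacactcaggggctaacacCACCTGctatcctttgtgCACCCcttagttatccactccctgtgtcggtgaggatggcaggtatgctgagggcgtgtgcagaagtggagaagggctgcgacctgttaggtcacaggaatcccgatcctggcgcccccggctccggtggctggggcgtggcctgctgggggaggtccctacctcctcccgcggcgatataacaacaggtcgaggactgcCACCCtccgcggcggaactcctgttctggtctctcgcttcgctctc
Krt7: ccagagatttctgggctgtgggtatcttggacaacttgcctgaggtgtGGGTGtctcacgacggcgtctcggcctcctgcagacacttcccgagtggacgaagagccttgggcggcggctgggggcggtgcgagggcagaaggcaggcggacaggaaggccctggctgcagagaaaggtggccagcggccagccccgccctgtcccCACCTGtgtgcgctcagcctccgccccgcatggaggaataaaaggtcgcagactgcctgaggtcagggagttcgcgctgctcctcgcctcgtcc
Krt13: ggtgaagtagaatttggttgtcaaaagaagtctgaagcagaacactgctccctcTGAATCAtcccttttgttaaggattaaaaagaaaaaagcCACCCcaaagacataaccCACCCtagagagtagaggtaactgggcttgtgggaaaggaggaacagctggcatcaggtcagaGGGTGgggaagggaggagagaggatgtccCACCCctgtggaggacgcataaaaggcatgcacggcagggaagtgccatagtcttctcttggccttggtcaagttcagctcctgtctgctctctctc

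These windows lie at chr15:102004293-102004592 on the minus strand for Krt8, chr15:102027966-102028265 on the plus strand for Krt18, chr15:101412153-101412452 on the plus strand for Krt7 and chr11:100121517-100121816 on the minus strand for Krt13. Krt13 had 2 windows in the table, and the upstream one is printed. The Krt8 window held 2 CACCC and 1 CACCTG matches, and a TATAAA match on each strand, which overlap in a single stretch. The Krt18 window held 2 CACCC and 1 CACCTG, the Krt7 window 1 of each, and the Krt13 window 4 CACCC and 1 TGANTCA. Of the 32851 windows in the table, 57.5% held CACCC, 20.2% CACCTG, 13.6% TATAAA and 7.81% TGANTCA. For the 36 windows of the 35 keratins matched by symbol, these shares were 83.3%, 38.9%, 52.8% and 5.56%. A match describes the letters and is not evidence of binding. Krt19, Krt6b and Krt80 had no entry among the windows used here.

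Krt8 intensities (log2) were 7.20, 7.09 and 7.24 in day 3 control and 7.11, 7.01 and 6.94 in day 3 knockdown. At day 6 they were 7.48, 7.25 and 7.41 in control and 7.64, 7.40 and 7.34 in knockdown. Every day 6 array lay above every day 3 array of the same hairpin. In knockdown cells Krt8 rose 1.36-fold over time, a log2 fold change of 0.44 (SE 0.09, limma adjusted p = 0.00479). In control cells the log2 fold change was 0.21 (SE 0.09) and did not pass (limma adjusted p = 0.136). The difference between these time effects was 0.23, with a 95% interval of −0.04 to 0.50 (limma adjusted p = 0.989), so the change was not shown to differ between hairpins.

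Krt18 intensities (log2) were 6.33, 6.40 and 6.23 in day 3 control, 6.30, 6.08 and 6.09 in day 3 knockdown, and 6.20, 6.45 and 6.29 in day 6 control. In day 6 knockdown they were 6.80, 6.57 and 6.64. The day 6 knockdown arrays were the highest of the 12, and the other 3 groups overlapped with one another. In knockdown cells Krt18 rose 1.43-fold over time, a log2 fold change of 0.51 (SE 0.09, limma adjusted p = 0.00190), against −0.01 (SE 0.09, limma adjusted p = 0.963) in control cells. The difference of these time effects, which is also the difference between the hairpin effects of both days, was 0.52 with a 95% interval of 0.25 to 0.80. It did not pass over all genes (unadjusted p = 0.00127, limma adjusted p = 0.910). The rises of Krt18 and Krt8 in knockdown cells each passed in 18 of 19 other settings, and missed when replicate 3 was left out of all groups (limma adjusted p = 0.0564 for Krt18 and 0.0575 for Krt8).

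The other Krt18 probe set had a mean log2 intensity of 5.35 against 6.37 for the one used. Its log2 values were 5.35, 5.56 and 5.14 in day 3 knockdown and 5.64, 5.51 and 5.54 in day 6 knockdown, which overlapped. In control they were 5.38, 5.18 and 5.12 at day 3 and 5.38, 5.26 and 5.19 at day 6. In a fit of all 41345 probe sets its change in knockdown cells was 0.21 and did not pass (limma adjusted p = 0.321), while the Krt18 probe set used here passed in that fit (limma adjusted p = 0.00777).

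Krt19, a type I keratin with a very short tail, fell in both hairpin groups. Its log2 intensities were 9.31, 9.58 and 9.37 in day 3 control and 9.45, 9.45 and 9.32 in day 3 knockdown. At day 6 they were 8.42, 8.48 and 8.40 in control and 8.36, 8.56 and 8.49 in knockdown. Day 3 and day 6 did not overlap, and the hairpin groups of a day did. Krt19 fell 1.98-fold in control (log2 fold change −0.99, SE 0.08, limma adjusted p = 1.37e-05) and 1.92-fold in knockdown (−0.94, SE 0.08, limma adjusted p = 1.41e-05). The difference of the time effects was 0.05, with a 95% interval of −0.20 to 0.30. Krt19 passed in all 19 other settings for each hairpin.

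Krt7, Krt20 and Krt23 complete the simple keratins. Krt7 intensities (log2) were 5.54, 5.59 and 5.71 in day 3 control and 5.80, 5.66 and 5.65 in day 3 knockdown, then 5.75, 5.66 and 5.53 in day 6 control and 5.74, 6.02 and 5.73 in day 6 knockdown. The groups overlapped in each of the 4 comparisons of hairpin or day. The time change of Krt7 was 0.03 in control (95% interval −0.16 to 0.22) and 0.13 in knockdown (−0.07 to 0.32), and neither passed. Krt20, a keratin of gut and urinary epithelium, had group means of 5.53 to 5.71 and log2 fold changes of −0.14 in control and −0.12 in knockdown, which did not pass. Krt23 did not pass the low-value filter.

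**Figure D2:**
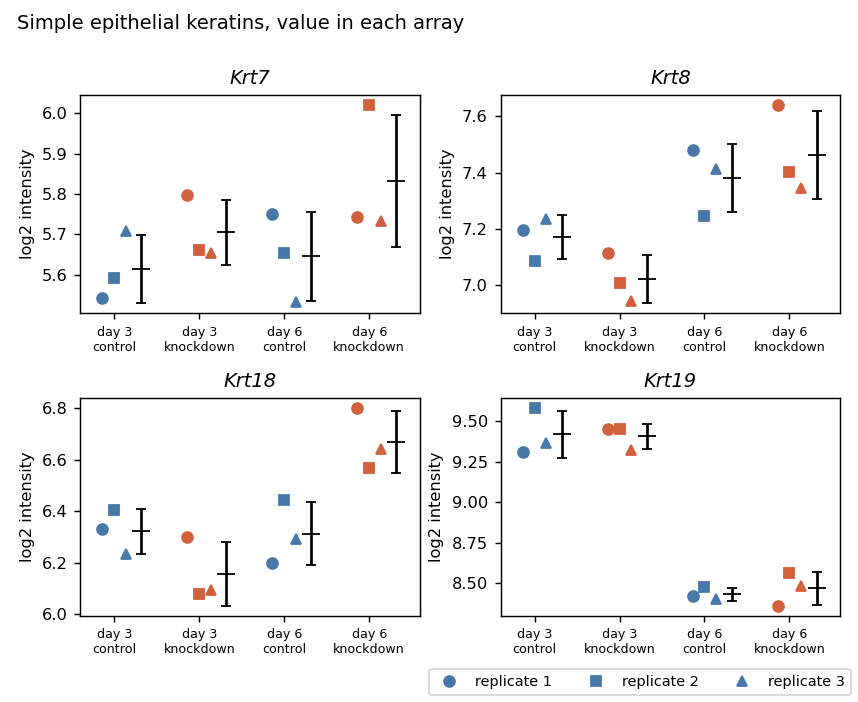
Log2 intensity (vertical axis) of Krt7, Krt8, Krt18 and Krt19 in each array of the 4 groups (horizontal axis), blue for control and orange for knockdown, with a symbol for each replicate number and bars for the mean and SD over 3 arrays. Krt19 is lower in every day 6 array, Krt18 is highest in the 3 day 6 knockdown arrays, and the vertical scales differ between panels.

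The changes of Krt19, Krt8 and Krt18 were set beside markers of cell types that use simple keratins. Of 4 other simple epithelial markers, Cdh1, which encodes E-cadherin, and Epcam, an epithelial adhesion molecule, rose over time in knockdown (log2 fold changes 1.99 and 1.24, limma adjusted p = 1.44e-06 and 9.89e-04). In control cells Cdh1 rose (0.96, limma adjusted p = 3.23e-04) and the other 3 did not pass. The summed linear intensity of these 4 markers was 191 to 203 in day 3 control, 176 to 222 in day 3 knockdown, 283 to 320 in day 6 control and 526 to 602 in day 6 knockdown. Of 8 mesothelial markers tested, 1 fell and 0 rose over time for each hairpin, where 17.6% (control) and 17.9% (knockdown) of all genes passed. It was Upk1b, a uroplakin, at −1.19 in control (limma adjusted p = 1.34e-04) and −1.22 in knockdown (limma adjusted p = 8.85e-05). Msln, which encodes mesothelin, stood at 0.60 and 0.52 and did not pass, and Muc16 missed the low-value filter. The summed mesothelial intensity was 756 to 879 in day 3 control, 786 to 995 in day 3 knockdown, 602 to 857 in day 6 control and 632 to 885 in day 6 knockdown. The part of these cells in the keratin changes was not tested.

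Over the whole family, 2 of 48 keratins tested fell and 0 rose between day 3 and day 6 in control cells, Krt19 and Krt13. That is 4.17% of the keratins tested, where 17.6% of all 17860 genes passed in limma (6.99% higher and 10.6% lower). In knockdown cells 4 rose (Krt8, Krt18, Krt10 and Krt27) and 4 fell (Krt19, Krt13, Krt6b and Krt80), or 16.7%, near the 17.9% of all genes (7.46% higher and 10.5% lower). The days did not overlap for 9 keratins (18.8%) in control and 10 (20.8%) in knockdown, against 35.3% and 34.3% of all genes. The median log2 fold change of the keratins was 0.03 in control and 0.05 in knockdown, against 0.01 over all genes in each. Without day 3 knockdown replicate 2 the days did not overlap in knockdown for 18 keratins and 44.5% of all genes, where 2 arrays were set against 3.

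With the replicate number as a block the control count was 4, where 18.9% of all genes passed, since Krt80 was then lower (limma adjusted p = 0.0492) and Krt90 higher (0.19, limma adjusted p = 0.0476). The block also added Krt73 to those higher in knockdown (0.24, limma adjusted p = 0.0247). The knockdown count was 4 without day 3 knockdown replicate 1, in a fit that called 13.7% of all genes, and 4 without day 3 knockdown replicate 2 (14.3%). It was 5 without day 6 knockdown replicate 1 (14.5%) and 5 without day 6 knockdown replicate 2 (12.1%). Without day 6 knockdown replicate 1, 3 were higher although Krt10 and Krt27 did not pass, so a keratin outside the 8 was counted. With replicate 1, 2 or 3 left out of all groups the knockdown count was 4 each time, with 11.1%, 8.07% and 6.04% of all genes called. The members differed, with 3 higher and 1 lower, 2 and 2, and 0 and 4. Without replicate 1 a keratin outside the 8 was again counted. By type, the 8 genes called in knockdown were 5 type I and 3 type II.

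**Figure D3:**
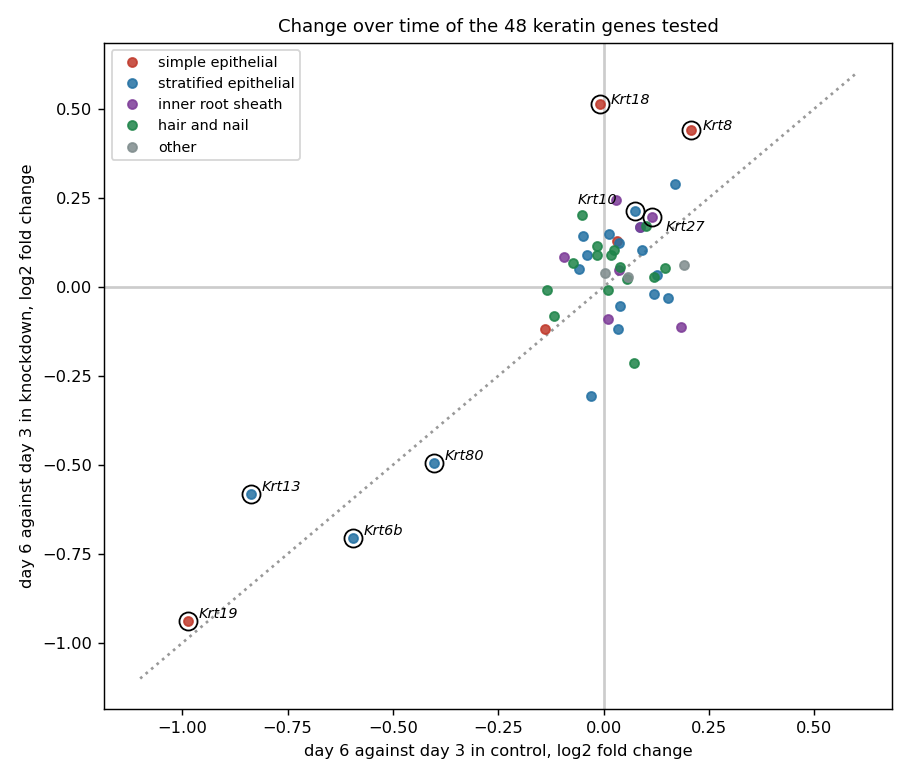
Log2 fold change from day 3 to day 6 in control cells (horizontal axis) against that in knockdown cells (vertical axis) for the 48 keratins tested, coloured by class, with rings around those past the test in at least 1 hairpin group and a dotted line where both changes are equal. Krt19, Krt13, Krt6b and Krt80 lie at negative values on both axes, Krt18 lies at −0.01 and 0.51, and most other keratins lie near 0.

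Of the stratified keratins, Krt13 fell in both hairpin groups. It is a type I keratin of the lining of the mouth and esophagus, with log2 intensities of 7.05, 7.16 and 6.83 in day 3 control and 7.35, 6.82 and 6.97 in day 3 knockdown. At day 6 they were 6.11, 6.11 and 6.30 in control and 6.49, 6.41 and 6.49 in knockdown. Both day 6 groups lay below both day 3 groups, and at day 6 the knockdown arrays lay above the control arrays. Krt13 fell 1.79-fold in control (log2 fold change −0.84, SE 0.12, limma adjusted p = 6.90e-04) and 1.50-fold in knockdown (−0.58, SE 0.12, limma adjusted p = 0.00579). The difference was 0.25, with a 95% interval of −0.12 to 0.63. The knockdown fall missed the threshold without replicate 1 of all groups (−0.44, limma adjusted p = 0.0516). Krt13 and Krt19 flank Krt15 on chromosome 11 in the RefSeq table, and Krt15, a keratin of basal cells, stood at 0.13 in control and 0.03 in knockdown without passing.

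Krt6b, a type II keratin of stressed and regenerating epidermis, and Krt80, a type II keratin found in many epithelia, fell over time in knockdown cells, and both had negative log2 fold changes in control cells. Krt6b stood at log2 intensities of 6.11, 6.03 and 6.01 in day 3 control and 6.05, 5.96 and 5.76 in day 3 knockdown, then 5.63, 5.71 and 5.03 in day 6 control and 4.73, 5.48 and 5.43 in day 6 knockdown. Every day 6 array was lower than every day 3 array, and 1 array of each day 6 group lay far below the others of its group. The change was −0.71 in knockdown (SE 0.20, limma adjusted p = 0.0259) and −0.59 in control (SE 0.20, limma adjusted p = 0.0554). The control change passed in 6 of 19 other settings, with limma adjusted p down to 0.0267. The knockdown call held in 12 of 19 other settings and was lost with array weights (limma adjusted p = 0.0586) and in the fit of all probe sets (0.0717). It was also lost without day 3 knockdown replicate 1 (limma adjusted p = 0.0850), day 3 knockdown replicate 2 (0.0675) or day 6 knockdown replicate 1, where the change was −0.47 (0.0795). Without replicate 1 of all groups it was −0.40 (limma adjusted p = 0.207), and without replicate 2 the adjusted p was 0.0887. Krt6a is a near-identical copy whose own probe set missed the filter, so signal of the pair may not be separate and the Krt6b value is uncertain. A probe set shared by Krt6b and Gm5478 had a mean log2 intensity of 4.90. In the fit of all probe sets its time changes were −0.09 in control and 0.15 in knockdown (limma adjusted p = 0.802 and 0.568). The day 6 knockdown mean of the probe set used, 5.21, lay below that group's 95th percentile of olfactory receptor genes, 5.46.

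Krt80 stood at log2 intensities of 6.63, 6.83 and 6.36 in day 3 control and 6.57, 6.59 and 6.33 in day 3 knockdown, then 6.28, 6.39 and 5.95 in day 6 control and 5.73, 6.09 and 6.18 in day 6 knockdown. The days overlapped in control and did not in knockdown. Its change was −0.50 in knockdown (SE 0.15, limma adjusted p = 0.0372) and −0.40 in control (SE 0.15, limma adjusted p = 0.0873). The control change passed in 2 of 19 other settings. The knockdown call held in 11 of 19 other settings, lost with array weights (limma adjusted p = 0.0804) and in the fit of all probe sets (0.0952). It was also lost without replicate 1 or 2 of either day's knockdown group, with limma adjusted p from 0.0631 to 0.131, and the change was −0.32 (limma adjusted p = 0.305) without replicate 1 of all groups and −0.49 (0.137) without replicate 2. The differences of the time effects were −0.11 for Krt6b and −0.09 for Krt80, and neither passed.

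Krt10 and Krt27 rose by small amounts in knockdown cells. Krt10, the type I keratin of differentiating epidermis, stood at log2 intensities of 6.57, 6.60 and 6.68 in day 3 control and 6.41, 6.50 and 6.54 in day 3 knockdown. At day 6 it stood at 6.67, 6.76 and 6.64 in control and 6.75, 6.69 and 6.63 in knockdown, and the days overlapped in control and not in knockdown. Its log2 fold change was 0.21 in knockdown (SE 0.06, limma adjusted p = 0.0354) and 0.07 in control. The Krt10 call held in 7 of 19 other settings and was lost without replicate 1 or 2 of either knockdown group, with limma adjusted p from 0.0678 to 0.123, with any replicate number left out, and with arrays centred on the median (0.119).

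Krt27, a type I keratin of the inner root sheath, stood at log2 intensities of 5.25, 5.25 and 5.21 in day 3 control and 5.19, 5.22 and 5.32 in day 3 knockdown. At day 6 it stood at 5.34, 5.30 and 5.41 in control and 5.43, 5.46 and 5.43 in knockdown. The days did not overlap for either hairpin, but its group means of 5.24 to 5.44 were below the 95th percentile of olfactory receptor genes in each group. Its log2 fold change was 0.20 in knockdown (SE 0.06, limma adjusted p = 0.0314) and 0.11 in control. The Krt27 call held in 6 of 19 other settings, and of the 6 knockdown arrays only day 3 replicate 3 could be left out without losing it. Without the others the limma adjusted p was 0.0628 to 0.104, and with arrays centred on the median it was 0.124.

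**Figure D4:**
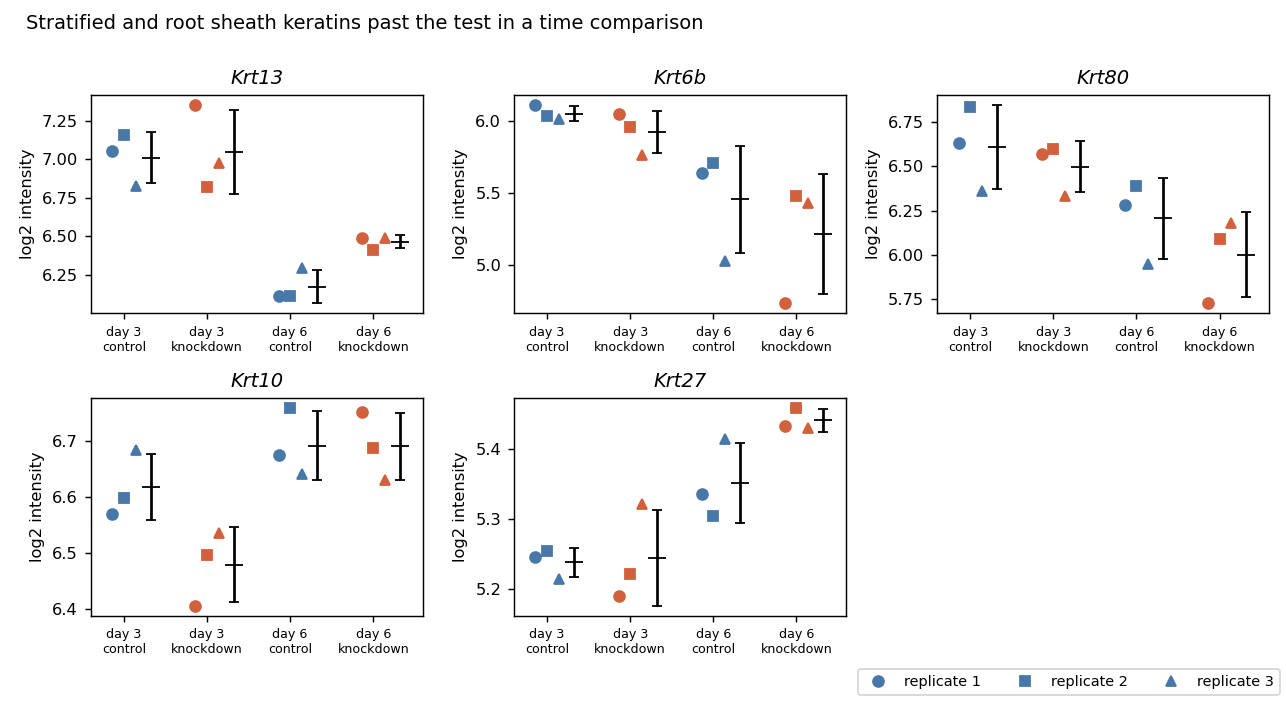
Log2 intensity (vertical axis) of Krt13, Krt6b, Krt80, Krt10 and Krt27 in each array of the 4 groups (horizontal axis), blue for control and orange for knockdown, with a symbol for each replicate number and bars for the mean and SD over 3 arrays. Krt13 separates the days for both hairpins, single low arrays widen the day 6 spread of Krt6b, and the vertical scales of Krt10 and Krt27 span a much narrower range than the others.

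The remaining stratified keratins past the 95th percentile of olfactory receptor genes were Krt2, Krt9, Krt77, Krt78 and Krt79, and none passed the adjusted threshold in a comparison. The epidermal keratins Krt1 and Krt14 had group means of 5.15 to 5.27 and 4.78 to 4.83, below that mark. The probe set shared by Krt5 and Krt6a had a mean log2 intensity of 5.63. In the fit of all probe sets its time changes were 0.04 in control and 0.04 in knockdown. Its hairpin differences were 0.09 at day 3 and 0.10 at day 6, and none of these passed. Of 15 keratinocyte markers other than keratins, 13 passed the low-value filter and Dsg1a and Serpinb5 did not. In control cells 0 of the 13 passed over time, against 17.6% of all genes, and the knockdown share of all genes was 17.9%. In knockdown cells Lypd3, a surface protein of differentiating epidermis, rose (0.24, limma adjusted p = 0.0466) and Sprr1b, a cornified envelope protein, fell (−0.38, limma adjusted p = 0.0263). The summed linear intensity of the list was 737 to 762 in day 3 control, 751 to 781 in day 3 knockdown, 726 to 742 in day 6 control and 770 to 799 in day 6 knockdown. Its part in the keratin changes was not tested.

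Of 16 hair and nail keratins 15 were tested, and none passed the adjusted threshold over time for either hairpin. Among all genes 17.6% passed it in control and 17.9% in knockdown. The log2 fold changes of these 15 keratins ran from −0.14 to 0.15 in control and from −0.22 to 0.20 in knockdown. Their smallest limma adjusted p were 0.269 and 0.0709. At an unadjusted p of 0.05 there were 0 in control and 2 in knockdown, Krt40 (0.20) and Krt81 (−0.22), where 30% and 30.5% of all genes had one. Krt40 passed the adjusted threshold in knockdown in 1 of 19 other settings, with array weights (0.23, limma adjusted p = 0.0347). Without day 3 knockdown replicate 2, the hair and nail keratins at an unadjusted p under 0.05 in knockdown were Krt39, Krt40, Krt42 and Krt82. Krt81, a type II hair keratin, had group means of 7.03 ± 0.12 (SD, n = 3) in day 3 control and 7.08 ± 0.15 in day 3 knockdown, then 7.10 ± 0.02 in day 6 control and 6.87 ± 0.17 in day 6 knockdown. Krt32, Krt33a, Krt33b, Krt34, Krt35, Krt39, Krt40, Krt42, Krt82 and Krt86 also lay above the 95th percentile of olfactory receptor genes in some group. Of the inner root sheath genes only Krt73 did so, with group means of 5.58 to 5.83.

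No keratin differed between hairpins past the adjusted threshold on either day. At day 3, 0 of 48 passed by limma, and 0% of all 17860 genes did. An unadjusted p under 0.05 was found for 3 keratins, Krt40, Krt10 and Krt79, where 6.01% of all genes had one. The hairpin groups did not overlap for 5 keratins, or 10.4% of those tested, against 10.8% of all genes. Without day 3 knockdown replicate 2, 0 keratins passed by limma and 4 had an unadjusted p under 0.05 (Krt40, Krt78, Krt82 and Krt88), against 5.69% of all genes. The groups, then 2 arrays against 3, did not overlap for 16 keratins, or 33.3%, against 20.6% of all genes. Krt40, a hair keratin, had the smallest p, with a log2 fold change of −0.32 (95% interval −0.48 to −0.17, limma adjusted p = 0.697) and the knockdown array lower in each of the 3 same-number pairs. The median was −0.04 over the keratins and −0.01 over all genes.

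At day 6, 0 of 48 keratins passed, against 0.0392% of all genes by limma, each of them higher in knockdown. Unadjusted p-values under 0.05 were found for 4 keratins, Krt18, Krt81, Krt13 and Krt33b, against 4.44% of all genes. The hairpin groups did not overlap for 7 keratins, or 14.6%, against 10.6% of all genes. Krt18 had the smallest p, with a log2 fold change of 0.36 (95% interval 0.16 to 0.55, unadjusted p = 0.00165, limma adjusted p = 0.538), and was higher in 3 of 3 same-number pairs. It stayed between 0.23 and 0.48 when arrays were left out, and the other Krt18 probe set stood at 0.29 (limma adjusted p = 1.00), with all 3 knockdown values above all 3 control values. The day 6 values of the other simple keratins were 0.19 for Krt7 (95% interval −0.01 to 0.38), 0.08 for Krt8 (−0.11 to 0.27), 0.04 for Krt19 (−0.14 to 0.21) and 0.06 for Krt20. Of the 48 keratins tested 21 were positive, among them all 5 simple keratins and 5 of 7 of the inner root sheath. At day 3, 2 of the 5 simple keratins were positive. The day 6 median of the simple keratins was 0.08 against −0.01 over all genes, and none passed. The genes were measured on the same arrays, so their signs are not separate observations. The share of all genes that were positive is not given here. With 1 array left out the lowest values were −0.0064 for Krt8 and −0.0084 for Krt19. Of the 4 other simple epithelial markers, Cdh1 was higher in knockdown at day 6 (1.00, limma adjusted p = 0.0130) and Epcam stood at 1.11 (limma adjusted p = 0.148). The part of epithelial cells in the Krt18 value was not tested.

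The day 3 hairpin differences were −0.17 for Krt18, −0.15 for Krt8, −0.01 for Krt19 and 0.09 for Krt7. The day 6 comparison shares its knockdown arrays with the time comparison in knockdown cells, so these are not separate observations of Krt18. The change of the hairpin effect between days passed for 0 of 48 keratins and 0% of all genes by limma. An unadjusted p under 0.05 was found there for 3 keratins, Krt18, Krt40 and Krt71, and for 5.1% of all genes. Without day 3 knockdown replicate 2 these were Krt18 and Krt40, against 4.53% of all genes.

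**Figure D5:**
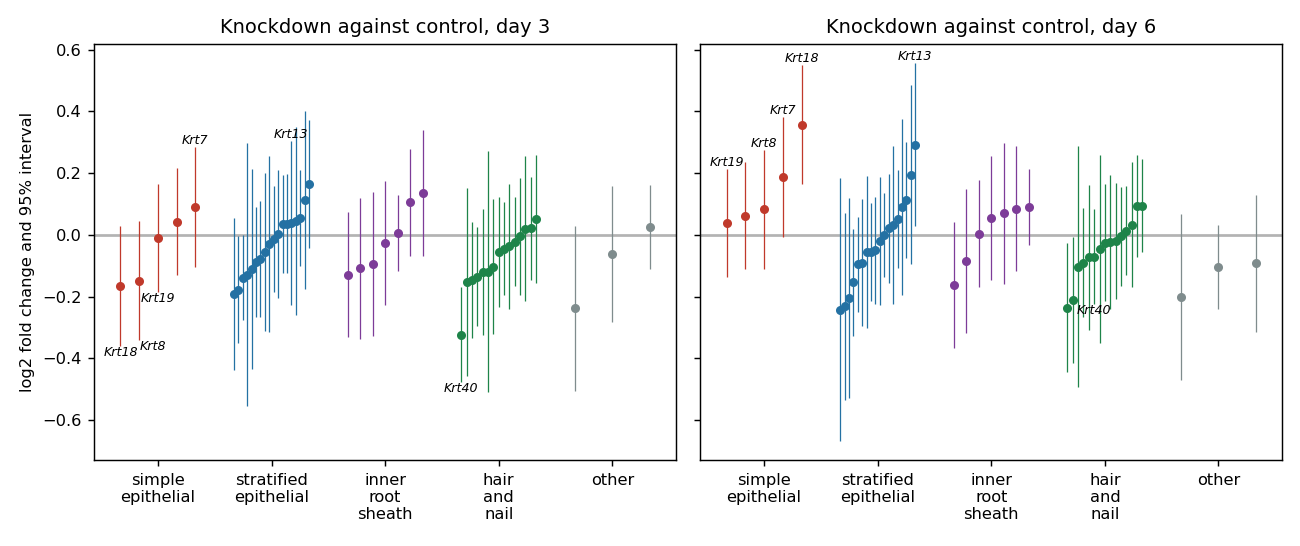
Log2 fold change of knockdown against control (vertical axis) with its 95% interval for the 48 keratins tested, by class (horizontal axis), at day 3 on the left and day 6 on the right. At day 6 Krt18 lies at 0.36, and the intervals of the other simple keratins include 0. Krt40 is lowest at day 3 at −0.32, and no value passed the test over all genes.

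Other intermediate filament genes were listed for comparison. Vim, the vimentin gene, had log2 fold changes over time of 0.03 in control and −0.03 in knockdown and did not pass. Of 15 genes tested, 0 rose and 3 fell in control, and 0 rose and 2 fell in knockdown. Among all genes 17.6% passed in control and 17.9% in knockdown. Nefl, a neurofilament subunit, fell in both (log2 fold changes −1.54 and −1.57, limma adjusted p = 4.91e-04 and 4.00e-04), as did Lmna, a nuclear lamin (−0.34 and −0.36, limma adjusted p = 0.0162 and 0.0109). Nefm, another neurofilament subunit, fell in control (−0.30, limma adjusted p = 0.0451) and stood at −0.28 in knockdown (limma adjusted p = 0.0589). Between hairpins 0 of the 15 passed on either day.

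Of 13 genes tested whose products anchor or cross-link keratin filaments, 0 passed over time in knockdown cells, where 17.9% of all genes did. In control cells, where 17.6% of all genes passed, 0 rose and 3 fell. They were Dsp, the desmosomal protein that holds keratin filaments (−0.54, limma adjusted p = 0.0162), Pkp2, a desmosomal plaque protein (−0.41, limma adjusted p = 0.0301), and Plec, a filament cross-linker (−0.28, limma adjusted p = 0.0481). In knockdown these stood at 0.33, −0.33 and 0.08. The differences of the time effects did not pass, with limma adjusted p = 0.874, 0.991 and 0.918. Between hairpins 0 of the 13 passed on either day.

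Among 21 listed regulators of keratin and epithelial genes, 2 rose and 0 fell over time in control, and 5 rose and 0 fell in knockdown. The shares of all genes past the test were 17.6% in control and 17.9% in knockdown. Without day 3 knockdown replicate 2, 14.3% of the regulators passed in knockdown, against 14.3% of all genes. Tfap2a, a transcription factor of surface ectoderm, rose in both (0.36 and 0.76, limma adjusted p = 0.00532 and 3.06e-05). Cebpa, a transcription factor of liver and epidermis, rose in control (0.38, limma adjusted p = 0.0203). In knockdown Tfap2c, a relative of Tfap2a (0.81, limma adjusted p = 4.76e-04), the epithelial splicing regulator Esrp1 (0.52, limma adjusted p = 0.00196) and the general factor Sp1 (0.27, limma adjusted p = 0.0287) rose, as did Grhl2, a factor of epithelial junction genes (0.25, limma adjusted p = 0.0286). Between hairpins 0 of the 21 passed on either day.

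Markers of 3 more cell types were examined, where over time 17.6% of all genes passed in control and 17.9% in knockdown. Of 5 fetal hepatocyte markers tested, Afp rose in knockdown (0.25, limma adjusted p = 0.0161), 0 passed in control, and Fgb and Serpina1a missed the filter. The apolipoprotein genes Apoa2 and Apoa1 had mean log2 intensities of 7.06 and 5.87. Of 5 trophoblast markers tested, 0 passed over time for either hairpin, and the transcription factor genes Hand1 and Ascl2 had mean log2 intensities of 6.17 and 5.66. Of 10 fibroblast markers tested, Pdgfrb, a growth factor receptor, rose in both (1.11 and 0.91, limma adjusted p = 0.00123 and 0.00375) and the others did not pass. The summed fibroblast intensity was 8913 to 9363 in day 3 control, 8702 to 9451 in day 3 knockdown, 8786 to 11194 in day 6 control and 8134 to 10543 in day 6 knockdown. Without day 3 knockdown replicate 2, the members of the lists beside the keratins that passed over time in knockdown were those named above except Sprr1b, Sp1 and Grhl2, with Pkp2 added as lower, and 0 passed between hairpins at day 3. Of the 9 interferon-stimulated genes tested, 0 passed over time in knockdown in the reported fit, with a median log2 fold change of −0.42. Without that array Bst2, Ddx58 and Ifit3 rose and 0 fell, or 33.3%, against 14.3% of all genes.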

How the data were processed

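Expression was measured on 12 Affymetrix arrays. The deposited values are linear intensities (4.71 to 13421) that the authors made with RMA, run in version 1.3.0.187 of Affymetrix Expression Console according to the submitters' processing notes. The plan assumed log2 values, so their log2 was taken. The labels and files name no genome build for the array. Of 41345 probe sets 23521 named 1 gene. The brightest probe set on average represented each gene, and 17860 genes passed the low-value filter.

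Each group had its own mean in 1 limma fit (version 3.58.1, R 4.3.3) over 12 arrays, with 8 residual and 4.37 prior degrees of freedom. Tests were two-sided, Benjamini-Hochberg adjusted over all genes, at 0.05. The fit was also run on simulated data with independent noise on each array. Such data do not address arrays that correlate by replicate number. Intervals are 95% intervals of the fit. Python 3.11.15, pandas 2.3.3 and matplotlib 3.10.9 made the promoter tables and plots. The number of arrays limits the precision.

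The members, keratin classes and other lists (filament partners, other intermediate filaments, regulators, and markers of epithelium, keratinocytes, mesothelium, hepatocytes, trophoblast, fibroblasts and the interferon response) were chosen with earlier results of these data known. Named were Krt7, Krt8, Krt18, Krt19, keratins past the test, those above the olfactory receptor mark, and up to 4 members past the test per other list and comparison (the 2 of highest intensity where fewer than 2 passed). Other genes, such as Grhl2, Bst2, Krt1, Krt14, Krt15, Krt71 and Vim, were chosen after their values were seen.

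Groups share replicate numbers. Deviations from the group means correlated above 0.1 in 12 of 12 same-number pairs of compared arrays (r from 0.14 to 0.37) and in 0 of 24 other pairs (−0.28 to −0.01). By that rule the numbers pair the samples, from the data and not the labels. Between groups that were not compared, same-number r was 0.00063 for replicate 1 of day 3 control and day 6 knockdown, and above 0.1 otherwise. Deviations within a group sum to 0, so same-number and other pairs are not independent. For the keratins the blocked fit is given where it changes a call. For the other lists the blocked fit is not given, so whether their calls hold with the block is not shown. Alternatives covered the filter, the probe set, all probe sets in one fit, the block, only the groups compared, renewed quantile normalisation, median centring, array weights, eBayes with trend, and arrays left out.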

Additional observations from a re-analysis of the deposited data

How the results depend on the processing

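The hairpin comparisons and the difference between days gave 0 keratins past the threshold in every setting run. The time count in control, 2 in the reported fit, was 4 with the replicate block and 4 with array weights, where Krt6b and Krt90 also passed. It was 3 with the stricter filter, only the groups compared, quantile normalisation and median centring, where Krt6b passed, and 2 to 3 with arrays left out. In knockdown, 8 in the reported fit, it was 4 with all probe sets in one fit and 4 to 8 with arrays left out, where fewer samples enter the fit. Among the keratins the replicate block changed no other call than those of Krt80, Krt90 and Krt73. Above the 99th instead of the 95th percentile of olfactory receptor genes lay 6 keratins, not 28. Values that changed sign had not passed. For Krt7 in control over time they were −0.018 with quantile normalisation, −0.011 with median centring, −0.027 with array weights and −0.057 to 0.14 with arrays left out. For Krt18 in control they were 0.020 with the mean of probe sets, 0.057 with array weights and −0.075 to 0.051 with arrays left out. The day 3 hairpin effect of Krt19 was 0.0089 with array weights and −0.089 to 0.072 with arrays left out. With arrays left out, the day 6 effect ran from −0.0064 to 0.16 for Krt8 and −0.0084 to 0.091 for Krt19. The difference between days ran from −0.0037 to 0.28 for Krt7, −0.036 to 0.17 for Krt19, −0.49 to 0.25 for Krt6b (0.022 with array weights) and −0.27 to 0.10 for Krt80. The cause of these shifts was not tested.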
